A study of Homo sapiens and Mus musculus with 12 samples.

Results

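The genes described here are 36 genes of glycolysis and of the cellular response to low oxygen, chosen by symbol and read in 2 breast cancer cell lines after the kinase inhibitor ponatinib. They are 2 glucose transporters, 2 lactate transporters, 17 glycolytic enzymes, 4 regulators of glycolytic flux, 10 targets of the hypoxia-inducible factors (HIF) that act outside glycolysis, and HIF1A itself. All 36 symbols were found among the 63677 gene identifiers of the human count files. In the 47729 mouse identifiers 34 were found under the same symbol. No mouse gene was named Gpi or Ca9 in the annotation, and the mouse genes Gpi1 and Car9, which encode the same proteins, are given apart from every count.

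MDA-MB-231 is a human triple-negative breast cancer line and 4T1 a mouse mammary carcinoma line, each 1 line of its species and labelled as wild-type epithelial cells of the breast. RNA-seq was made from cells grown in DMEM with serum and exposed for 24 h to 1 µmol/L ponatinib, an inhibitor of several tyrosine kinases, or to DMSO, its solvent. There were 3 libraries in each of the 4 groups, and between 15012884 and 18951493 reads were counted per library. The labels do not say that replicates came from separate cultures, so p-values measure the spread between these libraries only. The labels name no group at low oxygen. Keratin genes KRT8 and KRT18 were detected in all 12 libraries, and so were VIM and CD44. The epithelial gene EPCAM was low, with 727 reads over the 6 MDA-MB-231 libraries and 291 over the 6 of 4T1. Of the hormone receptor and HER2 genes, ESR1 had 5 reads in MDA-MB-231 and 546 in 4T1, PGR 57 and 0, and ERBB2 13141 and 10427. The epithelial cadherin CDH1 had 1 read in all MDA-MB-231 libraries together but 787 to 969 CPM in 4T1, CPM being reads scaled to a common library total. The leukocyte markers PTPRC and CD3E stayed at or below 0.22 CPM in every library, and Lyz2, a lysozyme of myeloid cells with no human gene of that symbol, read 0.76 to 0.98 CPM in 4T1 (log2 fold change 0.02, adjusted p = 0.954).

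Glycolysis breaks glucose down to pyruvate in the cytosol. Glucose enters through transporters, is trapped by hexokinase, is committed by phosphofructokinase and leaves many tumour cells as lactate, made by lactate dehydrogenase and exported with protons by monocarboxylate transporters. HIF-1 is a pair of HIF1A with ARNT. In ample oxygen, prolyl hydroxylases of the EGLN family mark HIF1A for destruction through VHL. At low oxygen HIF1A escapes and the pair binds short DNA sites near its targets, which include most glycolytic genes and also genes of pH control, collagen hydroxylation and histone demethylation. mRNA of HIF1A is thus only 1 of the levels at which the factor is set.

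In MDA-MB-231, 35 of the 36 genes passed the filter on low counts. The exception was CA9, with 2 reads over 6 libraries. At a Benjamini-Hochberg adjusted p under 0.05 in edgeR's quasi-likelihood test, 13 were lower with ponatinib, 10 were higher and 12 did not pass. Among all 14610 genes tested, 26.8% were called lower and 27.2% higher, 54.0% in all, so that a count of called genes says little by itself. The groups did not overlap for 23 of the 35, beside 60.4% of all genes. With the replicate number as a block, 20 of the 35 were lower and 11 higher, beside 4873 lower and 4802 higher of all genes. The genes added as lower by the block were ALDOA, EGLN1, ENO1, GAPDH, P4HA1, PDK1 and PKM, with adjusted p-values of 8.47e-07 for ENO1 to 0.0391 for EGLN1, and GPI was added as higher. In MDA-MB-231, ALDOC, MXI1, ANKRD37, NDRG1 and SLC16A1 were called with a log2 fold change above 1, beside 10.7% of all genes, and HK2 was called below -1, beside 5.16%. In 4T1, 32 of the 34 genes passed the filter, 17 were lower, 6 were higher and 9 did not pass the test. The background there was 29.4% lower and 29.5% higher, 59.0% in all, of 13286 genes. The groups did not overlap for 22 of the 32, beside 63.4% of all genes. The 2 that fell to the filter were Slc2a3, with 10 reads, and Ldhb, with 17. Pfkm and Aldoc were called above 1, beside 9.57% of all genes, and no gene of the 32 below -1, beside 4.84%. These are bulk libraries, in which fewer cells of a kind and less RNA per cell cannot be told apart.

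The count of lower genes in 4T1 moved with the scaling between libraries. When counts were scaled by plain totals, 11 were lower and 9 higher, and all genes tested split into 2935 lower and 4854 higher in place of 3909 and 3925. Plain totals raised the median change over all genes tested, on the log2 scale, from -0.00 to 0.12.

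In MDA-MB-231 most called enzymes and glucose transporters were lower, and most called HIF targets outside glycolysis were higher. Of 19 enzymes and glucose transporters, 10 were lower, 4 higher and 5 not called, and the median of their log2 fold changes was -0.29. Of 9 HIF targets tested, 1 was lower, 5 were higher and 3 were not called, with a median of 0.45. Of all genes tested, 26.8% were lower and 27.2% higher, and their median was 0.02. In 4T1 7 of 16 enzymes and glucose transporters were lower, 3 higher and 6 not called, with a median of -0.03, while 7 of 9 HIF targets were lower and 2 higher, with a median of -0.44 against -0.00 for all genes. Of all genes in 4T1, 29.4% were lower and 29.5% higher. By plain totals the median of the 16 in 4T1 was 0.09, beside 0.12 for all genes. Relative to all genes it was -0.03 under both scalings. Their split by plain totals was 5 lower and 5 higher, and that of the 9 HIF targets 4 lower and 2 higher. All genes there split into 2935 lower and 4854 higher. In MDA-MB-231 that scaling left 0 of the 9 lower and 5 higher, beside 3097 lower and 4641 higher of all 14610 genes. With the replicate block 14 of the 19 enzymes and glucose transporters of MDA-MB-231 were lower and 5 higher, and 3 of the 9 HIF targets were lower and 5 higher. Of all 14610 genes in that line, the block called 4873 lower and 4802 higher. In 4T1 the block gave 7 lower and 4 higher of the 16, and 7 lower and 2 higher of the 9. There it called 4310 lower and 4310 higher of all 13286 genes. These counts describe the 2 sets of genes and were not tested against each other.

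**Figure D1:**
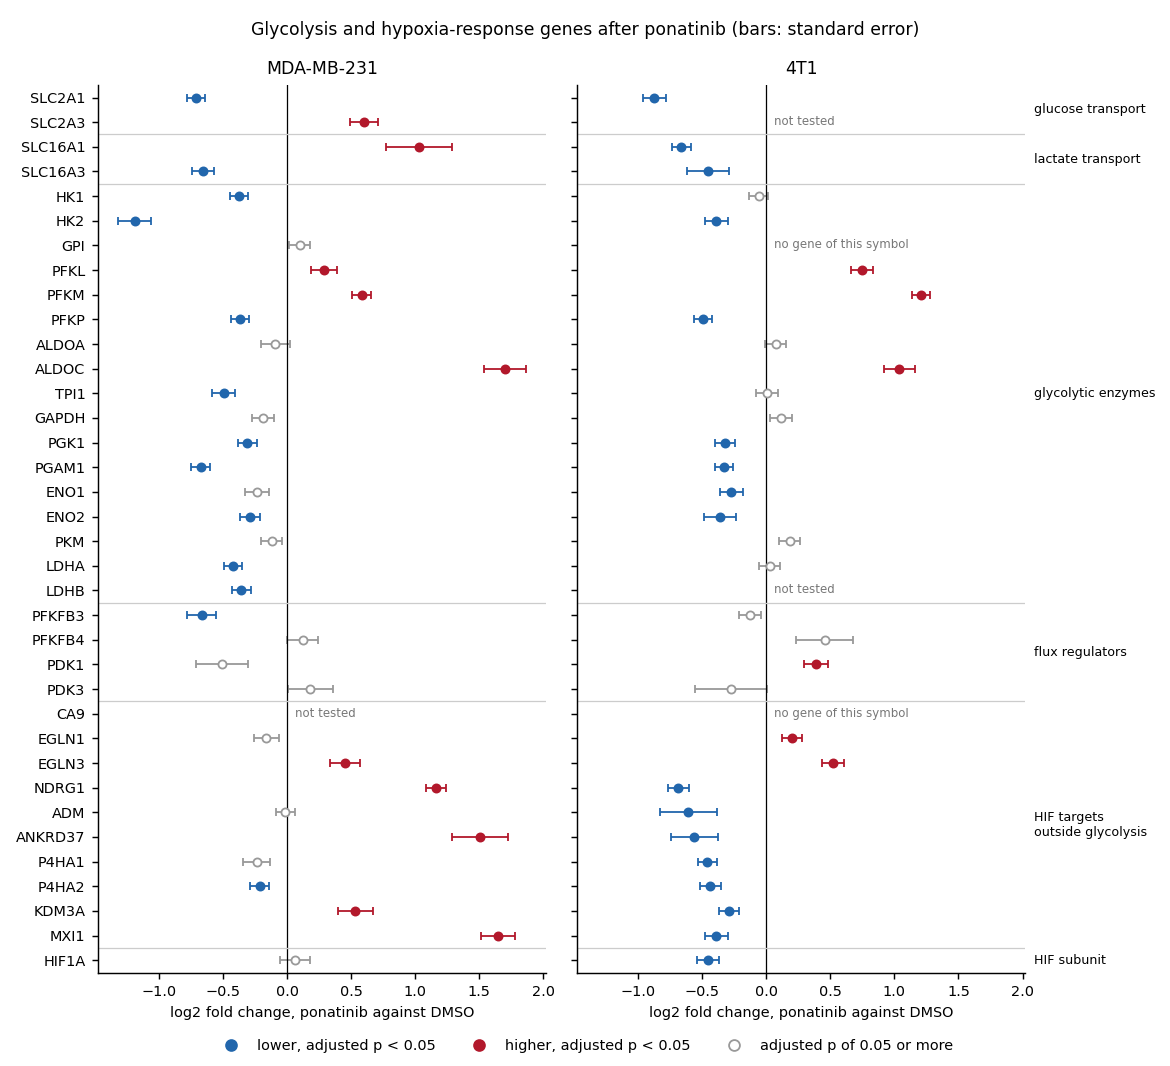
Log2 fold change of ponatinib against DMSO (x axis) for each of the 36 genes (y axis, grouped by role) with MDA-MB-231 in the left panel and 4T1 in the right, the standard error as bars and 3 libraries per group. In the HIF target rows, 5 points lie right of 0 as called in MDA-MB-231, and 7 lie left of 0 as called in 4T1.

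The glucose transporter SLC2A1 fell in both lines. SLC2A1 encodes GLUT1, the main glucose carrier of most dividing cells (chr1:42925353-42958893 on hg38; chr4:118965908-118996365 on GRCm39 for Slc2a1). In MDA-MB-231 its level was 380.7, 395.6 and 394.1 CPM in DMSO and 227, 241.9 and 246.7 CPM with ponatinib. Every treated library lay below every control, with a log2 fold change of -0.71 ± 0.07 (SE; adjusted p = 7.34e-06). The 4T1 libraries gave 389.7, 325.1 and 335.9 CPM in DMSO and 211.4, 181.5 and 180.4 CPM with ponatinib. Here too the groups did not overlap, at a log2 fold change of -0.87 ± 0.09 (adjusted p = 1.31e-06), or 1.83-fold lower. The difference between the lines was -0.24 ± 0.12, which did not pass over all genes (adjusted p = 0.12) but did with the replicate block (adjusted p = 0.00664).

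SLC2A3 encodes GLUT3, a carrier of higher glucose affinity. It moved the other way in MDA-MB-231, from 16.1, 17.9 and 16.4 CPM to 22.9, 28.0 and 25.5 CPM, with no overlap and a log2 fold change of 0.60 ± 0.11 (adjusted p = 0.000686). Per kilobase of transcript, SLC2A1 still made up most of the pair. Its share of the summed CPM per kilobase was 96.3% ± 0.16 (SD, n = 3) in DMSO and 91.4% ± 0.58 with ponatinib, and the sum of both fell from 120 ± 2.6 to 77.1 ± 3.6 CPM per kilobase. In 4T1 Slc2a3 was near 0 and Slc2a1 stood for nearly the whole pair.

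The 250 bases before the transcription start of SLC2A1 are printed for both species, since the gene fell in both. Human sequence is from the RefSeq promoter table (GRCh38.p14) and mouse sequence was read from GRCm39 before the start of the Ensembl canonical transcript. Each runs 5′ to 3′ in the gene's own direction, both genes being listed here with their strand. Capitals mark the core of the hypoxia response element, searched as ACGTG or GCGTG and, for the other strand, as CACGT or CACGC. The palindrome CACGTG counts once on each strand.
SLC2A1, human chr1:42958869-42959118, minus strand: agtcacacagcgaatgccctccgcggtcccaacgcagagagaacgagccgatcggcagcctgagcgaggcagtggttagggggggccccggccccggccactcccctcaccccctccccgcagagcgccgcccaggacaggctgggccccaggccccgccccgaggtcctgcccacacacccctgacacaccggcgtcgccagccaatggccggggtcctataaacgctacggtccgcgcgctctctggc
Slc2a1, mouse chr4:118965658-118965907, plus strand: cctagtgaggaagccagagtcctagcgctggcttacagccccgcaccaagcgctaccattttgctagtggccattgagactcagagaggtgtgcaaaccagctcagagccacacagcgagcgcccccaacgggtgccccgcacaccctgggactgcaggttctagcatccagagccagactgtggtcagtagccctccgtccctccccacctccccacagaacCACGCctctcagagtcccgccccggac
The human window holds 0 matches and the mouse window 1, of the CACGC form. A match is a run of letters and not a site of binding, and its lack in this window says nothing of sites elsewhere.

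Such matches were common among the genes described. The RefSeq table held 1 start for 20 of the 36 human genes, several starts for 13, and no entry for SLC2A3, SLC16A1 and NDRG1. Of the 20 windows, 14 (70.0%) held a match, beside 42.2% of the 22114 windows of all human symbols with 1 start. In mouse each gene had 1 window, before the start of its canonical transcript. Of these, 24 of 34 (70.6%) held a match, beside 41.3% of 21770 protein-coding genes. Both roles had them: in mouse 12 of 18 enzymes and glucose transporters and 8 of 9 HIF targets, and in human 7 of 11 and 5 of 7. No test was run on these shares, which concern the sequence and not the response to the drug.

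The prevailing lactate transporter differed between the lines and fell in each. SLC16A3 encodes MCT4, known for lactate export from strongly glycolytic cells, and SLC16A1 encodes MCT1, which carries lactate in either direction. Per kilobase, SLC16A3 made up 99.8% ± 0.11 (SD, n = 3) of the pair in MDA-MB-231 with DMSO, whereas Slc16a1 made up 97.0% ± 0.66 in 4T1. In MDA-MB-231 the level of SLC16A3 was 665.5, 550.9 and 598.3 CPM in DMSO and 408.5, 368.8 and 371.3 CPM with ponatinib. The groups did not overlap, and the log2 fold change was -0.66 ± 0.09 (adjusted p = 5.73e-05). CSNK1D lies across SLC16A3 on the opposite strand and changed by 0.13 on the log2 scale (adjusted p = 0.166). As the strand setting of the counting is not stated, reads of such overlapping genes could not be told apart here. In 4T1 the level of Slc16a1 was 327.6, 366.7 and 346.4 CPM in DMSO and 224.1, 226.7 and 206.6 CPM with ponatinib. Again every treated library was below every control, at -0.66 ± 0.08 (adjusted p = 3.62e-06).

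The minor transporter of each line behaved differently. SLC16A1 rose in MDA-MB-231 from 1.39, 2.91 and 2.08 CPM to 3.91, 4.78 and 4.38 CPM. The groups did not overlap but the gene held only 316 reads over the 6 libraries, with a log2 fold change of 1.03 ± 0.26 (adjusted p = 0.00497). Slc16a3 in 4T1 read 11.7, 8.62 and 12.5 CPM in DMSO and 9.15, 6.67 and 8.13 CPM with ponatinib. These groups overlapped, and its call as lower (-0.45 ± 0.16, adjusted p = 0.0274) was lost without DMSO replicate 3, Ponatinib replicate 2 or Ponatinib replicate 3 (adjusted p = 0.0609 to 0.119) and by plain totals (adjusted p = 0.0924).

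Of the 17 glycolytic enzymes of MDA-MB-231, 9 were lower, 3 higher and 5 not called, beside 26.8% lower and 27.2% higher of all genes. HK2, the inducible hexokinase bound to mitochondria, had the largest fall. Its level was 54.9, 59.0 and 64.2 CPM in DMSO and 20.8, 27.1 and 30.1 CPM with ponatinib. Every treated library lay far below every control, with a log2 fold change of -1.19 ± 0.13 (adjusted p = 1.19e-05), or 2.28-fold lower. PGAM1, the phosphoglycerate mutase of most tissues, read 588.2, 567.5 and 557.1 CPM in DMSO and 334.2, 370.3 and 368.3 CPM with ponatinib. The gap between the groups was far wider than the spread within them (log2 fold change -0.68 ± 0.07, adjusted p = 1.46e-05). The other 7 lower enzymes fell by less, from -0.50 for TPI1 and -0.42 for LDHA through HK1, PFKP, LDHB and PGK1 to -0.29 for ENO2. The 5 enzymes not called were GPI (0.10), ALDOA (-0.09), PKM (-0.12), GAPDH (-0.19) and ENO1 (-0.24). The last 2 were near the threshold: ENO1 passed in DESeq2 (adjusted p = 0.0292), with all genes of at least 1 count kept (adjusted p = 0.00154) and without DMSO replicate 3 or Ponatinib replicate 1 (adjusted p = 0.0494 and 0.006). GAPDH passed with the same looser filter (adjusted p = 0.0137) and without Ponatinib replicate 1 (adjusted p = 0.0161). By plain totals GPI was called higher (adjusted p = 0.0212) and ALDOA turned to 0.00.

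In 4T1 fewer enzymes were called lower. Of 15 enzymes tested, 6 were lower, 3 higher and 6 not called, beside 29.4% lower and 29.5% higher of all genes. The lower ones were Pfkp (-0.49), Hk2 (-0.39), Eno2 (-0.36), Pgam1 (-0.33), Pgk1 (-0.32) and Eno1 (-0.27). The calls of Eno1 and Eno2 were lost by plain totals (adjusted p = 0.148 and 0.105) and without 1 of several libraries: for Eno1 without DMSO replicate 3 or Ponatinib replicate 2 (adjusted p = 0.0795 and 0.0911) and for Eno2 without DMSO replicate 1 or Ponatinib replicate 2 (adjusted p = 0.0731 and 0.103). Not called were Pkm (0.18), Gapdh (0.11), Aldoa (0.07), Ldha (0.03), Tpi1 (0.01) and Hk1 (-0.06). With the replicate block Pkm, which encodes pyruvate kinase, was called higher (0.19, adjusted p = 0.0291), as it was in DESeq2 (adjusted p = 0.0364), under both other filters on low counts (adjusted p = 0.049 and 0.0466) and without DMSO replicate 1 (adjusted p = 0.018). By plain totals Pkm and Gapdh were both called higher (adjusted p = 0.00393 and 0.0309), and Hk1 turned to 0.06. Gpi1, the mouse gene for glucose-6-phosphate isomerase, was higher at 0.36 ± 0.09 (adjusted p = 0.00223).

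Hexokinase and lactate dehydrogenase show how the lines differ in their isozymes. HK2 made up 7.98% ± 0.76 (SD, n = 3) of hexokinase 1 and 2 per kilobase in MDA-MB-231 with DMSO and 4.70% ± 0.92 with ponatinib. In 4T1 the share of Hk2 was higher in both groups, 30.2% ± 1.1 and 25.6% ± 1.8, and its level went from 347.3, 339.4 and 305.1 CPM to 287.6, 240.7 and 228.4 CPM. The called fall was -0.39 ± 0.09 (adjusted p = 0.00196). LDHA and LDHB encode the subunits of lactate dehydrogenase, the first favouring lactate formation. They were near parity in MDA-MB-231, where LDHA was 49.4% ± 0.98 of the pair in DMSO and 48.3% ± 1.4 with ponatinib, and both fell. Their sum dropped from 1214 ± 28 to 926 ± 29 CPM per kilobase. In 4T1 Ldhb was all but absent, and Ldha did not change beyond its spread, at 981 ± 93 and 999 ± 36 CPM per kilobase.

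Aldolase C was the enzyme with the largest rise in MDA-MB-231. ALDOC, the aldolase best known from brain, rose from 5.04, 5.504 and 3.71 CPM to 17.1, 14.2 and 15.1 CPM, a 3.25-fold change with no overlap (log2 fold change 1.70 ± 0.16, adjusted p = 4.85e-06). Aldoc rose in 4T1 too, from 15.99, 11.7 and 14.3 CPM to 29.1, 27.2 and 29.9 CPM (1.04 ± 0.12, adjusted p = 4.79e-06). Its rise was the smaller one in 4T1, the difference between the lines being -0.74 ± 0.21 (adjusted p = 0.0073). ALDOA remained the bulk of aldolase. Per kilobase ALDOC went from 0.266% ± 0.058 (SD, n = 3) to 0.914% ± 0.065 of both in the human line, and from 0.842% ± 0.051 to 1.64% ± 0.057 in 4T1.

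Phosphofructokinase-1, the committing step, changed its make-up in both lines. The platelet-type isozyme PFKP fell while the liver-type PFKL and the muscle-type PFKM rose. PFKP read 604, 538.6 and 556.1 CPM in DMSO and 437.4, 433.7 and 445.2 CPM with ponatinib in MDA-MB-231. No treated library reached a control (-0.37 ± 0.07, adjusted p = 0.00121). Pfkp in 4T1 read 139.4, 131.2 and 139.2 CPM and then 98.8, 94.96 and 97.3 CPM, again without overlap (-0.49 ± 0.07, adjusted p = 2.67e-05). The gene Pitrm1 overlaps Pfkp on the opposite strand and changed by -0.01 ± 0.07 (adjusted p = 0.882).

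PFKM was the clearest riser of the 3. In 4T1 it went from 63.2, 65.7 and 62.6 CPM to 147.2, 142.8 and 153.0 CPM, 2.31-fold higher (1.21 ± 0.07, adjusted p = 4.32e-09). In MDA-MB-231 it went from 57.8, 59.0 and 58.6 CPM to 83.2, 89.8 and 89.4 CPM (0.58 ± 0.08, adjusted p = 5.37e-05). The rise was thus larger in 4T1, by 0.56 ± 0.10 on the log2 scale (adjusted p = 0.000186). The gene SENP1 overlaps PFKM on the other strand and changed by -0.10 in MDA-MB-231 (adjusted p = 0.601) and by -0.20 in 4T1 (adjusted p = 0.0417).

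PFKL was less even between libraries. In MDA-MB-231 it read 241.2, 189.9 and 190.1 CPM in DMSO and 275.9, 241.8 and 240.7 CPM with ponatinib. DMSO replicate 1 lay between the treated libraries, and the call (0.29 ± 0.10, adjusted p = 0.033) was lost without DMSO replicate 2, DMSO replicate 3, Ponatinib replicate 1 or Ponatinib replicate 2 (adjusted p = 0.0554 to 0.151). In 4T1 Pfkl rose from 200, 163.6 and 178.9 CPM to 319.6, 283.3 and 307.3 CPM with no overlap (0.75 ± 0.09, adjusted p = 3.66e-06). There Cfap410, which overlaps it on the opposite strand, rose by 2.16 ± 0.12 (adjusted p = 1.55e-09), and its part in the value of Pfkl was not tested.

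Per kilobase of transcript, the weight moved from PFKP to the other 2 isozymes. In MDA-MB-231 the share of PFKP went from 70.6% ± 1.1 (SD, n = 3) to 59.2% ± 1.3, and in 4T1 from 34.6% ± 1.0 to 16.9% ± 0.42. PFKM gained, from 6.21% ± 0.51 to 10.0% ± 0.61 in the human line and from 17.5% ± 1.4 to 27.7% ± 0.83 in the mouse line. PFKL gained as well, from 23.2% ± 1.6 to 30.8% ± 1.9 and from 48.0% ± 2.2 to 55.4% ± 1.1. The summed level in 4T1 went from 91.8 ± 5.1 to 134 ± 5.8 CPM per kilobase, a sum that holds Pfkl with its overlap by Cfap410. In MDA-MB-231 it went from 306 ± 23 to 282 ± 5.6. There the lowest DMSO library was at 289.5 and the highest ponatinib library at 288.4, so that the groups nearly touched. These sums were not tested.

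**Figure D2:**
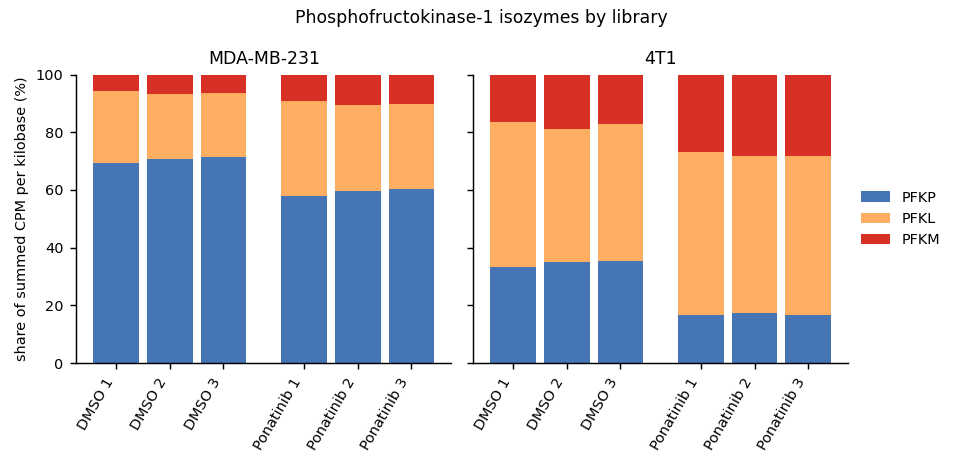
Share of each phosphofructokinase-1 isozyme in the summed CPM per kilobase (y axis, percent), 1 bar per library, with a panel for each line. The PFKP segment is shorter in every ponatinib library, at 57.8% to 60.3% against 69.4% to 71.5% in MDA-MB-231 and 16.6% to 17.4% against 33.4% to 35.3% in 4T1.

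As a whole the 17 enzymes took 1.661% to 1.897% of the scaled total in the DMSO libraries of MDA-MB-231 and 1.415% to 1.598% in the ponatinib libraries. The 16 enzymes found in 4T1 took 1.016% to 1.186% and 1.078% to 1.141%. One enzyme needs care in mouse. Gapdh, among the most abundant transcripts of most cells, read only 75.6 to 98.1 CPM in 4T1, where Aldoa read 790.2 to 966.7 CPM. The mouse genome holds many near-identical copies of Gapdh, and how reads with several matches were treated is not stated, so its values in 4T1 are uncertain. In MDA-MB-231 GAPDH read 2366 to 3081 CPM, and its 64 named pseudogenes held reads equal to 0.11% of those of the gene.

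Of the 4 regulators of flux, 1 was called in each line, and not the same one. Of all genes, 54.0% were called in MDA-MB-231 and 59.0% in 4T1. PFKFB3 makes fructose 2,6-bisphosphate, the strongest activator of phosphofructokinase-1. It fell in MDA-MB-231 from 56.4, 63.6 and 68.0 CPM to 33.7, 39.8 and 44.9 CPM without overlap (-0.67 ± 0.11, adjusted p = 0.000413). In 4T1 Pfkfb3 was at -0.13 ± 0.09 (adjusted p = 0.225), and the difference between the lines was 0.47 ± 0.15 (adjusted p = 0.0142). PDK1 encodes a pyruvate dehydrogenase kinase, which keeps pyruvate out of the mitochondrial oxidation path. Pdk1 rose in 4T1 from 48.0, 43.9 and 53.5 CPM to 68.7, 60.5 and 61.2 CPM, with no overlap (0.39 ± 0.09, adjusted p = 0.00205). In MDA-MB-231 PDK1 was scarce, with 4.84, 7.45 and 6.10 CPM in DMSO and 3.596, 4.205 and 5.092 CPM with ponatinib. There the groups overlapped, and the log2 fold change of -0.51 ± 0.20 did not pass (adjusted p = 0.0542). It passed with the replicate block (adjusted p = 0.013), with all genes of at least 1 count kept (adjusted p = 0.0235), and without DMSO replicate 1 or without Ponatinib replicate 3 (adjusted p = 0.0181 and 0.033). The difference between the lines for PDK1 was 0.82 ± 0.21 (adjusted p = 0.00375). PFKFB4 (0.12 and 0.46 in MDA-MB-231 and 4T1) and PDK3 (0.18 and -0.27) were called in neither, though Pfkfb4 passed by plain totals (adjusted p = 0.0367).

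HIF1A was not called in MDA-MB-231 and was lower in 4T1. Its level was 69.6, 86.9 and 86.6 CPM in DMSO and 70.5, 92.4 and 90.7 CPM with ponatinib in MDA-MB-231. There the groups overlapped, with a log2 fold change of 0.06 ± 0.12 (adjusted p = 0.684), and replicate 1 was the lowest of its group in both. In 4T1 Hif1a read 262.7, 299.5 and 296.7 CPM in DMSO and 214.9, 227.2 and 184.5 CPM with ponatinib. Every treated library was below every control (-0.45 ± 0.09, adjusted p = 0.000449), and the difference between the lines was -0.59 ± 0.16 (adjusted p = 0.00473).

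Among HIF targets outside glycolysis, 4 were called higher in MDA-MB-231 and lower in 4T1: NDRG1, MXI1, ANKRD37 and KDM3A. With SLC16A1 they were the 5 genes called in opposite directions. In the edgeR fit with TMM scaling, filterByExpr and no block, no gene was lower in MDA-MB-231 and higher in 4T1. With the block EGLN1, PDK1 and PKM were (adjusted p = 0.0391, 0.013 and 0.00197 in MDA-MB-231, and 0.0139, 1.42e-05 and 0.0291 for Egln1, Pdk1 and Pkm). PDK1 was so too without the block when all genes of at least 1 count were kept (adjusted p = 0.0235 in MDA-MB-231). Pdk1 was called higher in 4T1 under each of the 12 alternatives (highest adjusted p = 0.0136). Another 4 were higher in both lines and 8 lower in both. No background is given here for these pairs of calls, as they were counted among the genes described only. Whether they are more frequent than among all genes was not tested. NDRG1 is a stress-response gene named for its regulation by N-myc (chr8:133237175-133302022 on hg38; chr15:66801166-66841835 on GRCm39). In MDA-MB-231 it read 138.0, 135.2 and 144.6 CPM in DMSO and 291.3, 317.3 and 325.9 CPM with ponatinib. The treated libraries were all far above any control (1.16 ± 0.08, adjusted p = 3.11e-07). In 4T1 the level of Ndrg1 was 560.0, 489.4 and 496.8 CPM and then 347.9, 315.0 and 297.9 CPM. All treated libraries lay below the controls (-0.69 ± 0.08, adjusted p = 7.14e-06), and the response differed between the lines by -1.92 ± 0.12 (4T1 minus MDA-MB-231; adjusted p = 2.54e-10).

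MXI1 encodes a partner of MAX that opposes MYC (chr10:110207605-110287365 on hg38; chr19:53298852-53364241 on GRCm39). It read 8.22, 10.3 and 11.5 CPM in DMSO and 28.2, 33.7 and 32.0 CPM with ponatinib in MDA-MB-231. This 3.13-fold rise left no overlap (1.65 ± 0.13, adjusted p = 1.41e-06). In 4T1 Mxi1 went from 51.9, 54.1 and 59.5 CPM to 38.4, 45.9 and 42.1 CPM. The fall was smaller than the human rise but also without overlap (-0.39 ± 0.09, adjusted p = 0.00197), and the difference was -2.11 ± 0.17 (adjusted p = 8.21e-09).

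ANKRD37 encodes a small ankyrin-repeat protein known as a HIF target (chr4:185396021-185400628 on hg38). It was scarce in both lines. In MDA-MB-231 it rose from 3.38, 2.01 and 4.09 CPM to 8.39, 9.43 and 9.14 CPM (1.50 ± 0.22, adjusted p = 0.000121), and in 4T1 it went from 4.88, 4.72 and 6.29 CPM to 3.68, 3.82 and 3.25 CPM (-0.56 ± 0.18, adjusted p = 0.0158). The groups did not overlap in either line. The call in 4T1 was lost without DMSO replicate 3 or Ponatinib replicate 3 (adjusted p = 0.092 and 0.0627) and by plain totals (adjusted p = 0.0504), while the difference between the lines was -2.14 ± 0.29 (adjusted p = 6.39e-06). UFSP2, which overlaps ANKRD37 on the opposite strand, moved the same way to a lesser degree, by 0.48 ± 0.11 in MDA-MB-231 (adjusted p = 0.00245) and by -0.20 ± 0.09 in 4T1 (adjusted p = 0.0658). Its part in the values of ANKRD37 was not tested.

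The windows before the starts of human ANKRD37 and mouse Mxi1 are shown as those of genes called in opposite directions, 1 with the human rise and 1 with the mouse fall, in the same notation as for SLC2A1.
ANKRD37, human chr4:185396591-185396840, plus strand: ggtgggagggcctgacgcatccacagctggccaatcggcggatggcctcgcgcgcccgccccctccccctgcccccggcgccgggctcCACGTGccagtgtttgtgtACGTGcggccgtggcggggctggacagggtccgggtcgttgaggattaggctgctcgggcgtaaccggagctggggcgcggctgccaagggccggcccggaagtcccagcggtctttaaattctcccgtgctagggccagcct
Mxi1, mouse chr19:53317594-53317843, plus strand: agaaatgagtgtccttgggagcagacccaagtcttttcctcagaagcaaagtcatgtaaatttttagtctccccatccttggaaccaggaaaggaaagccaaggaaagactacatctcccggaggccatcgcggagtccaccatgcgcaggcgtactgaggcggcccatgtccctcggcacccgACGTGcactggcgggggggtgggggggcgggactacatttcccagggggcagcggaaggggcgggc
The window of ANKRD37 holds 3 matches, of which the palindrome CACGTG gives 2, and that of Mxi1 holds 1. Both windows lie inside the annotated span of the gene, as each was taken before 1 start and not before the outermost one.

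KDM3A, a demethylase of histone H3 lysine 9, was the mildest of the 4. In MDA-MB-231 it read 17.7, 22.6 and 23.7 CPM in DMSO and 25.9, 31.4 and 35.0 CPM with ponatinib. The lowest treated library was only just above the highest control (0.53 ± 0.14, adjusted p = 0.00636). In 4T1 Kdm3a read 97.5, 104.7 and 112.8 CPM and then 84.5, 90.8 and 82.0 CPM (-0.29 ± 0.08, adjusted p = 0.00524), and the call did not pass by plain totals (adjusted p = 0.077). The difference between the lines was -0.89 ± 0.16 (adjusted p = 0.000165).

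**Figure D3:**
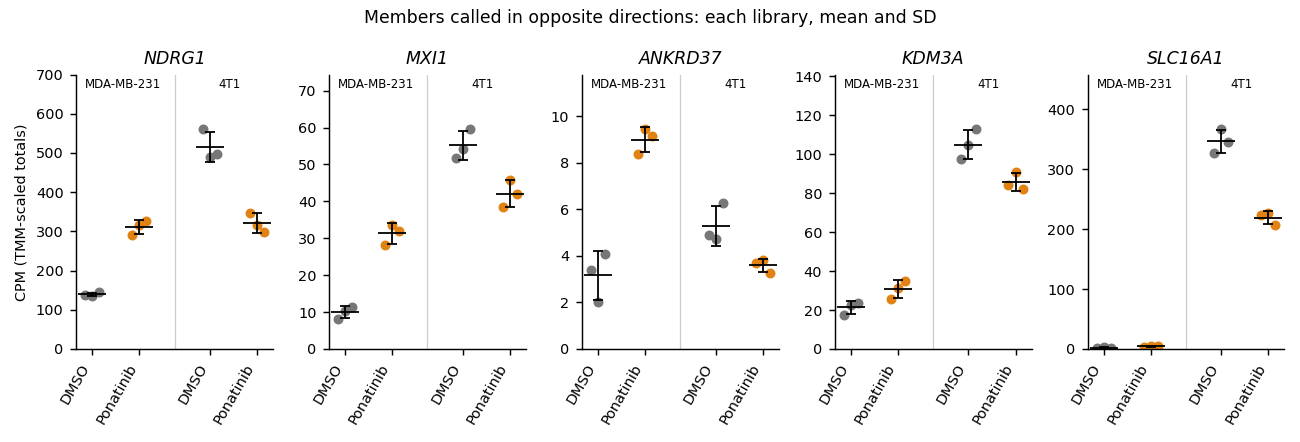
CPM on TMM-scaled totals (y axis, from 0) of the 5 genes called in opposite directions, with 1 point per library, the mean as a horizontal mark and the SD as bars. In NDRG1 the MDA-MB-231 libraries rise from 135.2 to 144.6 CPM up to 291.3 to 325.9 CPM and the 4T1 libraries drop from 489.4 to 560.0 CPM down to 297.9 to 347.9 CPM.

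Of the remaining HIF targets, EGLN3, a prolyl hydroxylase that HIF itself induces, was higher in both lines. It read 14.5, 12.7 and 12.3 CPM and then 16.5, 18.6 and 18.7 CPM in MDA-MB-231 (0.45 ± 0.12, adjusted p = 0.00668), and Egln3 read 178.6, 167.5 and 209.9 CPM and then 271.8, 262.6 and 264.6 CPM in 4T1 (0.52 ± 0.08, adjusted p = 9.94e-05). The groups were apart in both, and the 2 responses differed by 0.00 ± 0.18 on the log2 scale (adjusted p = 1.00). SPTSSA overlaps EGLN3 on the same strand in the human genome. It held 6114 reads in MDA-MB-231, where EGLN3 held 1503, and changed by -0.35 ± 0.09 (adjusted p = 0.00574). Its part in the value of EGLN3 was not tested. EGLN1, the main oxygen-sensing hydroxylase, was at -0.16 in MDA-MB-231 (adjusted p = 0.167, and 0.0391 with the replicate block) and at 0.20 in 4T1. That call in 4T1 (adjusted p = 0.0337) was lost in DESeq2 (adjusted p = 0.0615), with the looser filter (adjusted p = 0.0541) and without any of 4 libraries, DMSO replicates 2 and 3 and Ponatinib replicates 1 and 2 (adjusted p = 0.0687 to 0.144).

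P4HA1 and P4HA2 are the catalytic subunits of collagen prolyl hydroxylase. P4ha1 fell in 4T1 from 77.4, 80.7 and 84.9 CPM to 57.7, 62.2 and 56.9 CPM (-0.46 ± 0.08, adjusted p = 0.00014), and P4ha2 fell by a like amount (-0.44 ± 0.08, adjusted p = 0.000456). In MDA-MB-231 the values were -0.24 for P4HA1 (adjusted p = 0.0811, but 0.00474 with the replicate block, 0.0357 with the looser filter and 0.0336 without DMSO replicate 1) and -0.21 for P4HA2 (adjusted p = 0.0312). The call of P4HA2 was lost by plain totals (adjusted p = 0.244) and with at least 10 counts in every library (adjusted p = 0.054). It was also lost without any of 4 libraries, DMSO replicates 2 and 3 and Ponatinib replicates 2 and 3 (adjusted p = 0.0519 to 0.116). ADM, which encodes the vasodilator adrenomedullin, did not move in MDA-MB-231 beyond its spread, at 291.7 to 331.5 CPM in DMSO and 298.2 to 310.8 CPM with ponatinib. In 4T1 Adm was scarce, at 9.13, 5.11 and 9.19 CPM and then 6.34, 4.08 and 4.93 CPM. Those groups overlapped, and its call as lower (-0.61 ± 0.22, adjusted p = 0.0287) was lost without DMSO replicate 1 or 3 or Ponatinib replicate 2 or 3 (adjusted p = 0.0717 to 0.108) and by plain totals (adjusted p = 0.0734). CA9, the carbonic anhydrase often used as a hypoxia marker, had 0 reads in the DMSO libraries of MDA-MB-231 and 2 with ponatinib. Its mouse gene Car9 was also low, at 1.30, 1.61 and 1.31 CPM, and rose to 2.45, 3.41 and 3.20 CPM (1.10 ± 0.25, adjusted p = 0.00158).

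The response to ponatinib was compared between the lines as the interaction of line and treatment over 12488 genes with the same symbol in both species. Of all these, 41.9% passed, 20.0% more positive and 21.9% more negative in 4T1. Of the 32 genes described here that were tested in both lines, 8 were more positive in 4T1, 9 more negative and 15 did not pass. Among the HIF targets 6 of 9 were more negative in 4T1 and 3 did not pass, with a median difference of -0.67. One of the 3, EGLN1, was at 0.29 (adjusted p = 0.0623, and 0.0185 with the replicate block). Among the enzymes and glucose transporters 6 of 16 were more positive in 4T1, 1 more negative (ALDOC) and 9 did not pass, and the median difference was 0.23, where that of all genes was -0.04. With the replicate block the interaction of 7 further genes passed: EGLN1, HK1, PKM and GAPDH as more positive and PFKP, SLC2A1 and P4HA1 as more negative in 4T1 (adjusted p = 0.00461 for HK1 to 0.0259 for PFKP). That made 12 in each direction. The shares of all genes given above are from the fit without the block, and none is given here with it.

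**Figure D4:**
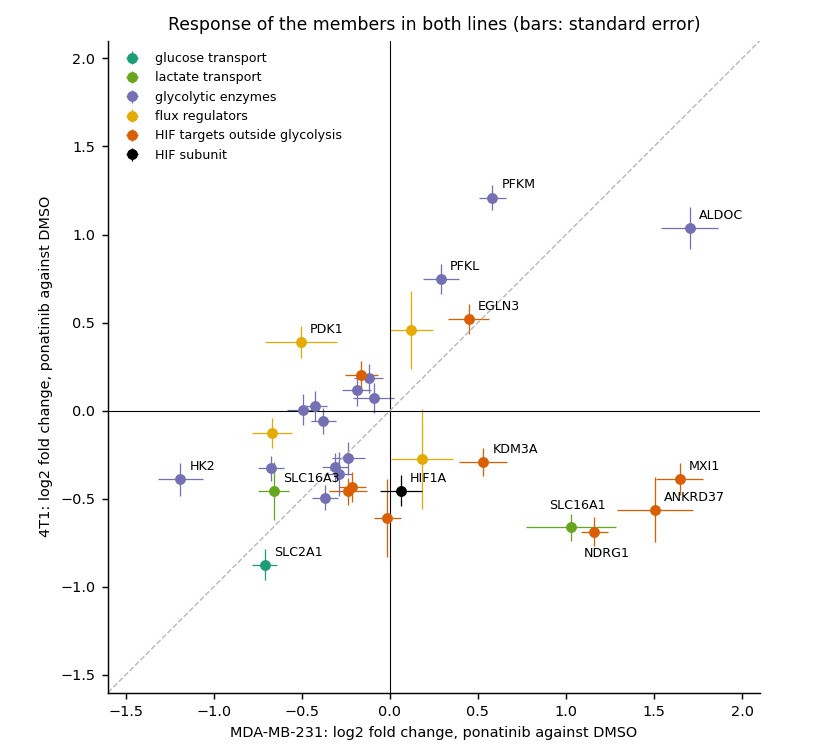
Log2 fold change of ponatinib against DMSO in MDA-MB-231 (x axis) and in 4T1 (y axis) for the 32 genes tested in both, coloured by role, with standard errors as bars and the line of equal response dashed. ANKRD37, MXI1, NDRG1, SLC16A1 and KDM3A sit in the lower right, positive in MDA-MB-231 and negative in 4T1, and PFKM, PFKL and ALDOC sit in the upper right.

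Further genes of the same pathways, listed by their known roles, were read the same way. Of 24 other glycolysis and pyruvate genes, 17 were tested in MDA-MB-231, with 6 lower and 7 higher (26.8% and 27.2% of all genes), and 19 in 4T1, with 2 lower and 8 higher (29.4% and 29.5% of all genes). Among those not tested in MDA-MB-231 was TXNIP, with 0 reads there, while Txnip had 84984 over the 6 libraries of 4T1. As the annotation behind the counts is not given, a silent gene and an identifier that took up no reads could not be told apart. The kinase PDK2, which like PDK1 restrains pyruvate oxidation, rose in both lines. In MDA-MB-231 its mean level went from 17.9 ± 2.0 to 35.1 ± 3.8 CPM (SD, n = 3), at 0.97 ± 0.12 (adjusted p = 3.25e-05), and in 4T1 from 2.99 ± 0.51 to 13.4 ± 0.60 CPM (2.16 ± 0.15, adjusted p = 3.09e-08). PFKFB2, another maker of fructose 2,6-bisphosphate, rose in MDA-MB-231 by 1.14 ± 0.14 (adjusted p = 2.73e-05). TIGAR, which degrades that activator, fell there (-0.98 ± 0.14, adjusted p = 9.07e-05), as did the glucose-uptake inhibitor ARRDC4 (-0.90 ± 0.14, adjusted p = 0.000266).

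In 4T1 the 4 largest called changes of that list among genes above 10 CPM in either group were rises. Beside Pdk2, Pklr, the pyruvate kinase of liver and red cells, went from 0.615 ± 0.35 to 10.7 ± 0.41 CPM (4.11 ± 0.27, adjusted p = 1.10e-08). Bpgm, which makes 2,3-bisphosphoglycerate, went from 25.9 ± 4.0 to 106 ± 4.0 CPM (2.04 ± 0.10, adjusted p = 7.31e-10). The transporter Slc2a8 rose by 1.48 ± 0.14 (adjusted p = 4.84e-07). In MDA-MB-231 BPGM was at -0.26 (adjusted p = 0.203), and the difference between the lines was 2.23 (adjusted p = 3.78e-08).

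Of 8 further regulators around HIF, 7 were tested in MDA-MB-231, where 6 were higher and 0 lower, beside 27.2% and 26.8% of all genes. In 4T1 2 of 6 were higher and 4 lower, beside 29.5% and 29.4%. EPAS1, which encodes HIF-2 alpha, rose in both. In MDA-MB-231 it went from 36.6 ± 5.3 to 81.1 ± 4.6 CPM (SD, n = 3; 1.14 ± 0.11, adjusted p = 4.16e-06), and in 4T1 from 3.62 ± 0.26 to 12.2 ± 0.74 CPM (1.75 ± 0.14, adjusted p = 1.27e-07). The HIF partner ARNT and CITED2, which competes with HIF for its coactivator, rose in MDA-MB-231 by 0.76 ± 0.11 and 1.01 ± 0.10 (adjusted p = 9.82e-05 and 5.09e-06). In 4T1 both were lower, Arnt at -0.22 (adjusted p = 0.0288) and Cited2 at -0.37 (adjusted p = 0.00112), and both interactions passed (-1.05 and -1.46, adjusted p = 3.23e-06 and 5.14e-08). VHL was higher in MDA-MB-231 (0.38 ± 0.13, adjusted p = 0.0255) with overlapping groups, a call lost without DMSO replicate 1 or 3 or Ponatinib replicate 2 or 3 (adjusted p = 0.0838 to 0.106). In 4T1 Vhl and Hif1an, which encodes the asparagine hydroxylase that silences HIF, were lower, at -0.45 ± 0.08 and -0.56 ± 0.07 (adjusted p = 0.00014 and 1.22e-05), while the hydroxylase gene Egln2 was higher, at 0.77 ± 0.09 (adjusted p = 7.54e-06).

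The other HIF targets were a list of 27 genes. In 4T1 13 of 21 tested were lower and 1 was higher, beside 29.4% and 29.5% of all genes, and the median of the list was -0.28. In MDA-MB-231 7 of 26 were lower and 10 higher, near the 26.8% of all genes for lower and above the 27.2% for higher, with a median of 0.09. These shares were not tested. As with TXNIP, the human identifier of MIF was near 0, with 6 reads in MDA-MB-231, where Mif had 64129 in 4T1. DDIT4, an inhibitor of the growth kinase mTORC1 that other stresses induce as well, moved furthest. It went from 11.0 ± 2.6 to 192 ± 22 CPM (SD, n = 3) in MDA-MB-231 (4.13 ± 0.15, adjusted p = 4.17e-09), while Ddit4 went from 448 ± 35 to 267 ± 27 CPM in 4T1 (-0.75 ± 0.09, adjusted p = 5.08e-06). The difference of -4.95 (adjusted p = 3.41e-13) exceeded that of any of the 32 genes above.

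In 4T1 the largest falls were Ero1a, an oxidase of the endoplasmic reticulum (-1.49 ± 0.08, adjusted p = 2.96e-09), and the lipid-droplet genes Hilpda (-1.38 ± 0.09, adjusted p = 1.99e-08) and Plin2. Plin2 dropped from 1303 ± 67 to 552 ± 10 CPM (-1.24 ± 0.08, adjusted p = 6.29e-09). In MDA-MB-231 ERO1A and HILPDA were also lower, at -0.32 and -0.59 (adjusted p = 0.0109 and 0.0286), and PLIN2 was at 0.15 (adjusted p = 0.117). ANGPTL4, a lipase inhibitor below 10 CPM in both groups, was lower in MDA-MB-231 (-3.54, adjusted p = 2.15e-06, 382 reads). The demethylase-family gene JMJD6 fell in MDA-MB-231 (-0.98 ± 0.08, adjusted p = 2.28e-06), and TMEM45A and ZNF395 rose there (1.40 ± 0.13 and 0.73 ± 0.08, adjusted p = 3.25e-06 and 1.44e-05).

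**Figure D5:**
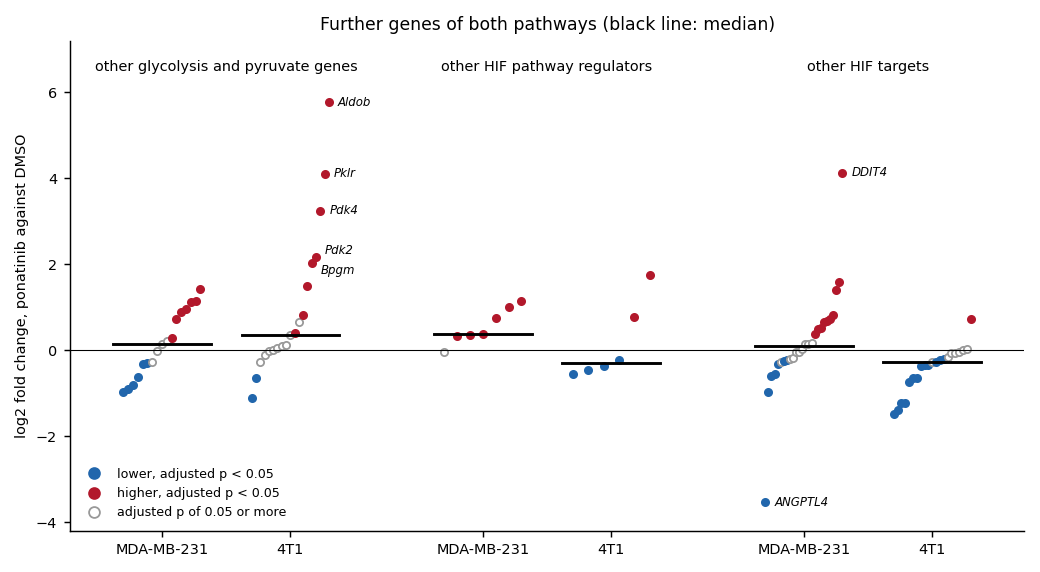
Log2 fold change of ponatinib against DMSO (y axis) of the further genes of 3 lists in each line, 1 point per gene in order of its value, with the median as a black line. The medians of the other HIF targets are 0.09 in MDA-MB-231 and -0.28 in 4T1. DDIT4 at 4.13 stands above the rest of its list.

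Of the markers of other cells, the fibroblast gene PDGFRB, read as a check on the make-up of the cultures, moved with treatment. It rose in MDA-MB-231 from 0.20 to 0.71 CPM up to 8.35 to 10.7 CPM and went from 0.66 to 0.79 CPM to 0 reads in 4T1. COL1A1 was higher in both lines (1.43 and 1.26), DCN was at or near 0 throughout, and of the endothelial genes CDH5 stayed at or below 0.40 CPM and PECAM1 had 0 reads in MDA-MB-231 and 0.21 to 0.49 CPM in 4T1. Line markers moved as well: VIM and CD44 were lower (-0.66 and -0.77) and KRT8 higher (0.88) in MDA-MB-231, and Krt18 and Cd44 were lower (-0.54 and -0.35) in 4T1. Their part in the values above was not tested.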

How the data were processed

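Total RNA of 12 samples, extracted with TRIzol, was sequenced after library preparation with an NEBNext Ultra kit. The authors removed adapters and reads of undetermined bases, aligned the rest with HISAT2 to hg38 or GRCm39 and made the deposited counts per Ensembl gene with HTSeq. Their versions, the annotation and the strand setting are not given in the sources used here. The values are raw read counts, 1 column per library, with no normalization.

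Genes were matched by symbol to Ensembl identifiers through GENCODE v44 and vM39, which held 81.95% of the human and 91.07% of the mouse identifiers and 99.32% and 99.79% of the counts. Each line was fitted apart in edgeR 4.0.16 (R 4.3.3) with filterByExpr, TMM scaling and the quasi-likelihood test, and p-values were adjusted by Benjamini and Hochberg over all genes tested, with 0.05 as the threshold. The difference between the lines was the interaction of line and treatment over shared symbols. CPM values are on TMM-scaled totals, and CPM per kilobase used the exon length of the Ensembl canonical transcript. The error after a log2 fold change is its standard error, that after a mean is the SD of 3 libraries.

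Values in every library were given for up to 3 genes a role with the largest change among those called, not overlapping and at 10 CPM or more in the higher group, for HIF1A, for genes called in opposite directions in the 2 lines, for up to 6 with the largest interaction, and for paralogs called in opposite directions. From the further lists up to 4 genes a list and line were named by size of change at 10 CPM or more. Other genes named with values, among them Gpi1, Car9, ANGPTL4, the overlapping genes and some counterparts in the other line, were chosen after their values were seen. The genes and lists were chosen with earlier results of these data known.

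Every same-numbered pair of DMSO and ponatinib libraries had a correlation of deviations over 0.1 (correlations of 0.345, 0.111 and 0.133 in MDA-MB-231 and of 0.213, 0.119 and 0.115 in 4T1), so that a fit with the replicate number as a block was set beside the one without it. Differently numbered pairs lay between -0.26 and 0.163 in MDA-MB-231 and between -0.213 and 0.119 in 4T1, so that not every library correlated best with its own number. No replicates were identical, with a chi-square per gene between them of 2.93 to 16.5. Total counts, DESeq2 size factors, DESeq2 1.42.0, other filters on low counts and leaving out each library were the other alternatives. The scripts were tested on simulated counts.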

Additional observations from a re-analysis of the deposited data

Results flagged for a closer look

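For 17 genes the response to ponatinib differed between the lines by the interaction test of edgeR over 12488 genes, of which 41.9% passed. Values are log2, 4T1 minus MDA-MB-231. More negative in 4T1 were ANKRD37 (-2.14), MXI1 (-2.11), NDRG1 (-1.92), SLC16A1 (-1.76), KDM3A (-0.89), ALDOC (-0.74), ADM (-0.67), HIF1A (-0.59) and P4HA2 (-0.29). More positive were PDK1 (0.82), HK2 (0.73), PFKM (0.56), PFKFB3 (0.47), TPI1 (0.43), PFKL (0.39), LDHA (0.38) and PGAM1 (0.27). Their adjusted p-values ran from 2.54e-10 for NDRG1 to 0.0474 for P4HA2.

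The 4 weakest of these did not hold without single libraries. For ADM the difference was lost without 4T1 DMSO replicate 1 or 3 or 4T1 Ponatinib replicate 2 or 3 (adjusted p = 0.0739 to 0.123). For PFKL it was lost without 4T1 DMSO replicate 2, MDA-MB-231 DMSO replicate 1 or MDA-MB-231 Ponatinib replicate 2 or 3 (adjusted p = 0.0502 to 0.101). For PGAM1 it was lost without MDA-MB-231 DMSO replicate 1 or 2 or MDA-MB-231 Ponatinib replicate 1 (adjusted p = 0.0591 to 0.0817). For P4HA2 it was lost without any of the 12 libraries (adjusted p = 0.0605 to 0.267). With all libraries, that of P4HA2 was also lost in DESeq2 (adjusted p = 0.0503), with its size factors (0.0671) and by plain totals (0.206). When all genes of at least 1 count were kept, the differences of P4HA2 and PGAM1 were lost (adjusted p = 0.0769 and 0.0517). In the other direction, EGLN1 and HK1 did not pass in that fit (adjusted p = 0.0623 and 0.0548) but passed without several of the libraries. With all libraries they passed in DESeq2 (adjusted p = 0.0298 and 0.00578) and with its size factors (0.044 and 0.0436). They also passed with at least 10 counts in every library (0.0401 and 0.0325) and by plain totals (0.0257 and 0.00481). By plain totals PKM and GAPDH passed as well (adjusted p = 0.0142 and 0.0267). P4HA1, PKM and GAPDH passed without 1 or 2 libraries (adjusted p = 0.0317 for PKM without 4T1 DMSO replicate 1, 0.0494 for GAPDH without 4T1 DMSO replicate 3, and 0.0309 and 0.0317 for P4HA1 without MDA-MB-231 Ponatinib replicate 1 or DMSO replicate 3).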

How the results depend on the processing

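Each line was refitted under 12 alternatives and the difference between the lines under 18. The number of genes lower in MDA-MB-231 was 20 with the replicate block in place of 13, and ran from 12 to 20 over all alternatives. By plain totals 11 genes were lower in 4T1 in place of 17, the medians of enzymes and glucose transporters were -0.195 (MDA-MB-231) and 0.0906 (4T1), while that of HIF targets in 4T1 was -0.318. The counts over all genes stayed within 1.5 times their value, and beyond the calls given with the results the replicate block changed no other call of a named gene. Genes near 0 changed sign: by plain totals Hk1 (0.0582) in 4T1, ADM (0.0824) and ALDOA (0.0049) in MDA-MB-231 and the difference of PGK1 (0.0147), by DESeq2 or its size factors Tpi1 in 4T1 (-0.0047 and -0.0033), and with at least 10 counts in every library ADM (0.0147). Leaving out 1 library moved Aldoa from -0.0054 to 0.1209, Ldha from -0.0496 to 0.0645 and Tpi1 from -0.0822 to 0.0577 in 4T1, and ADM from -0.0557 to 0.0351, ALDOA from -0.2039 to 0.0259 and HIF1A from -0.0492 to 0.1738 in MDA-MB-231. It moved the differences of ALDOA from -0.0341 to 0.2057, EGLN3 from -0.0681 to 0.158, ENO1 from -0.1924 to 0.0033, ENO2 from -0.1758 to 0.0023 and PGK1 from -0.1164 to 0.0101. The causes were not tested. Genes under about 10 CPM, such as SLC16A1, PDK1 and ANKRD37 in MDA-MB-231, rest on few reads.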
